A study of Homo sapiens with 6 samples.

Results

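Collagen chain genes were compared between A375 cells with high and with low aldehyde dehydrogenase activity. The members were all protein-coding genes of the deposited tables whose whole name has the form COL, digits, A, digits (COL1A1, for example), which gave 44 genes of 57914, among 19779 protein-coding genes. A375 is an established human melanoma cell line, here grown in DMEM with serum and stained with Aldefluor, a dye retained as a fluorescent product in cells with aldehyde dehydrogenase (ALDH) activity. By flow cytometry, the 5% of cells with the highest signal (ALDH_High, 3 libraries) and the 5% with the lowest (ALDH_Low, 3 libraries) were collected from this same stained line. No drug or genetic change is given for either group, both groups carry the dye, and the line is the only one used, so the groups describe the extremes of 1 cultured population. The libraries were poly(A) mRNA libraries made from 500 ng of total RNA. Nothing in the labels says that libraries of a group came from separate cultures, so p-values measure the spread between these libraries, which may be technical.

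Collagens are secreted or membrane-bound matrix proteins whose chains wind around each other in a helix made of Gly-X-Y repeats. Fibrillar chains build the tensile fibrils of connective tissue, and FACIT chains (fibril-associated collagens with interrupted helices) sit on the surface of those fibrils. Type IV chains form the sheet-like network of basement membranes, type VI chains form beaded filaments around cells, multiplexins carry sugar chains and can be cut to release fragments such as endostatin, and transmembrane collagens stay anchored in the plasma membrane. Melanoma cells make collagen themselves and also contact the dermal matrix and basement membranes laid down by other cells.

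Total counts of the 6 libraries ran from 26692868 to 37830603, of which the top 10 genes held 4.89% to 5.42%. No library was a copy of another, since chi-square per degree of freedom was 13.5 to 56.1 within groups and 94.5 to 128 between groups. The widest values within a group, 45.6 and 56.1, were those of ALDH_High replicate 1 with replicates 2 and 3. ALDH_High replicates 2 and 3 were at 13.5. ALDH1A3, the aldehyde dehydrogenase in the title of the study, was listed at 279, 519 and 504 TPM in ALDH_High and at 150, 182 and 165 TPM in ALDH_Low. The melanoma label was checked against 8 melanocyte lineage genes, whose summed level was 428 to 514 TPM in ALDH_High and 120 to 130 TPM in ALDH_Low and came mainly from SOX10 (397 TPM on average in ALDH_High and 111 in ALDH_Low). SOX10 and S100B (56.5 against 2.81 TPM) were higher in ALDH_High (edgeR adjusted p = 3.14e-05 and 9.03e-05), and MITF was lower (6.16 against 11.3 TPM, edgeR adjusted p = 0.00667). Of these 8, the pigment cell genes MLANA, PMEL, TYR, DCT and TYRP1 were at or near 0, at no more than 0.526 TPM in any library. Fibroblast and mural markers, which matter here because such cells are the main collagen makers of tissue, summed to 12.2 to 14.7 TPM in ALDH_High and 10.5 to 12.5 TPM in ALDH_Low over 7 genes. These 7 did not move together. PDGFRB was lower in ALDH_High (2.13 against 3.59 TPM, edgeR adjusted p = 0.00693). DCN (1.35 against 0.517 TPM), LUM (6.28 against 3.67 TPM) and PDGFRA (1.21 against 0.801 TPM) had higher means there and did not pass. RGS5 (1.82 against 2.46 TPM) did not pass either. THY1 and FAP were not tested, at no more than 0.459 TPM in any library. LUM was the highest at 4.98 TPM on average, and none of the 7 was at 0 in every library. The 5 endothelial markers summed to 3.12 to 3.18 against 0.736 to 0.950 TPM. That difference followed KDR (2.57 against 0.200 TPM, edgeR adjusted p = 5.82e-05). PECAM1 (0.127 against 0.209 TPM), TEK (0.192 against 0.271 TPM) and VWF (0.0708 against 0.0816 TPM) had lower means in ALDH_High and did not pass. CDH5 (0.188 against 0.0640 TPM) was not tested. The 6 white blood cell markers summed to 3.61 to 8.20 against 2.55 to 3.18 TPM. The latter sum followed LYZ (4.70 against 1.47 TPM on average), while CD14 was lower in ALDH_High (0.196 against 0.784 TPM, edgeR adjusted p = 0.0142) and CSF1R stood at 0.188 against 0.571 TPM (edgeR adjusted p = 0.0524). The part of these marker levels in the collagen values was not tested.

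Collagen transcripts were more abundant in cells with high ALDH activity, and the collagens that differed were not all of one kind. COL9A3, COL4A1, COL4A2, COL5A2, COL6A2, COL18A1 and COL19A1 were higher in ALDH_High, while the transmembrane collagens COL13A1 and COL17A1, the type IV chain COL4A6 and the type VI chain COL6A3 were lower. In TPM, a level corrected for transcript length that can be summed over genes, the 44 members together stood at 822, 867 and 876 in the ALDH_High libraries and at 472, 441 and 439 in the ALDH_Low libraries. All ALDH_High sums lay above all ALDH_Low sums. The means were 855 ± 28.6 TPM (SD, n = 3) and 451 ± 18.7 TPM (SD, n = 3), a ratio of 1.90 (exact two-sided permutation test, p = 0.1, the smallest p that 3 against 3 libraries allow). In these bulk samples, fewer cells making a transcript and less of it per cell cannot be told apart.

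**Figure D1:**
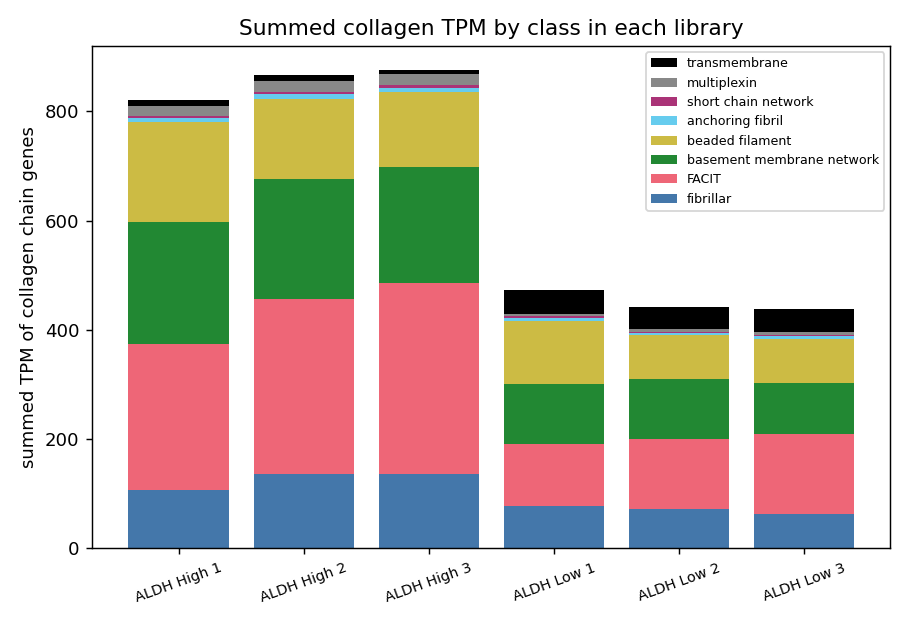
Summed TPM of the 44 collagen chain genes (vertical axis, TPM) in each of the 6 libraries, with the segments of a bar giving the classes. The ALDH_High bars reach 822 to 876 TPM and the ALDH_Low bars 439 to 472 TPM, and the transmembrane segment at the top is the one that is larger in ALDH_Low.

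Of the 44 members, 31 passed the filter on low counts and were tested, with 17047 genes in all, by edgeR's quasi-likelihood test with Benjamini-Hochberg adjustment over all of these. At an adjusted p below 0.05, 15 members were higher and 4 lower in ALDH_High, 12 did not pass and 13 were not tested. That is 48.4% of the tested members higher and 12.9% lower, beside a background over all genes tested of 10.8% higher and 9.83% lower (20.6% in either direction). With 1 library fewer the background of lower genes moved from 1675. It was 2049 without ALDH_High replicate 1 and 1073 to 1208 without any one of the others. The median log2 fold change (ALDH_High over ALDH_Low) was 0.56 over the 31 tested members and -0.01 over all genes tested. In normalised CPM (counts scaled by library size), the groups did not overlap for 20 of the 31 members, of which 16 were higher in ALDH_High, beside 37.8% of all genes tested. Of the 31 members, 24 stood above the count filter in every library of both groups, and of these 11 were higher and 3 lower. A further 5 (COL14A1, COL1A2, COL2A1, COL8A2 and COL9A1) passed the filter only through their ALDH_High libraries and COL17A1 only through its ALDH_Low libraries, so a difference in these was in part a condition of being tested.

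**Figure D2:**
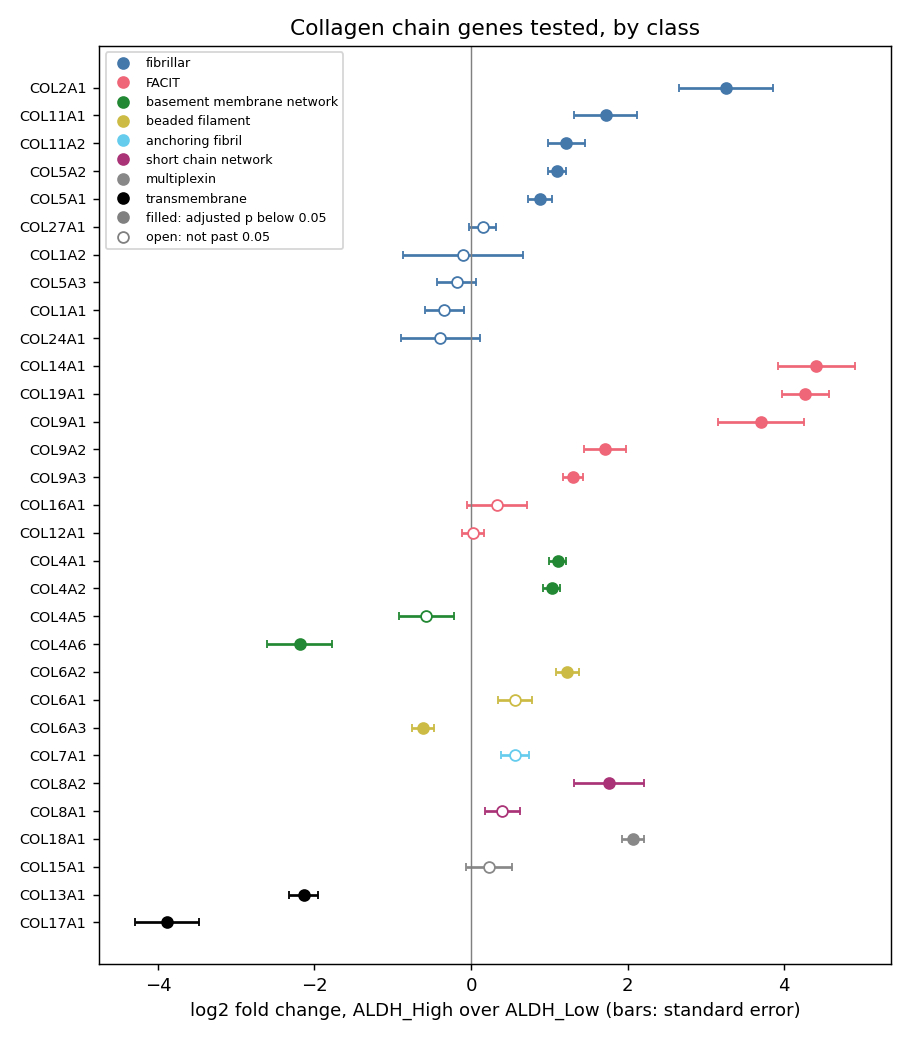
The log2 fold change (horizontal axis, ALDH_High over ALDH_Low) of the 31 collagen chain genes tested, in rows by class, with standard errors as bars and filled points for an edgeR adjusted p below 0.05. Filled points to the right of 0 run from 0.88 to 4.41 and hold no transmembrane chain, and those to the left are COL6A3 at -0.61, COL13A1 at -2.14, COL4A6 at -2.19 and COL17A1 at -3.88.

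The basement membrane class held genes called in both directions. Type IV collagen genes lie in the genome as head-to-head pairs, each pair transcribed outward from a shared promoter region. Of 6 genes listed, 4 were tested: COL4A1 and COL4A2, which encode the chains of the type IV collagen found in nearly all basement membranes, were higher, COL4A6 was lower and COL4A5 did not pass. COL4A1 stood at 57.6, 63.0 and 59.9 TPM in ALDH_High and at 29.3, 28.9 and 22.9 TPM in ALDH_Low. COL4A2 stood at 163, 155 and 149 TPM and at 77.7, 75.7 and 68.4 TPM. For both genes every ALDH_High library was above every ALDH_Low library, with little spread inside a group. The log2 fold changes were 1.11 ± 0.11 (SE; edgeR adjusted p = 1.09e-04) for COL4A1 and 1.03 ± 0.11 (SE; edgeR adjusted p = 1.69e-04) for COL4A2.

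The 2 transcripts kept their proportion: COL4A2 was 2.60 ± 0.203 times COL4A1 in ALDH_High (TPM ratio, SD, n = 3) and 2.75 ± 0.200 times in ALDH_Low, and the libraries of the groups overlapped. On GRCh38, GENCODE 44 places COL4A1 at chromosome 13, 110148963 to 110307157 on the minus strand, and COL4A2 at 110305812 to 110513209 on the plus strand. The annotated genes thus overlap where they meet head to head. Exons were not examined. Whether the authors' counting used the strand is not given in the sources used here, so reads from the overlap cannot be assigned with certainty. In RefSeq on GRCh38.p14 the start sites used for the promoter windows were 127 bases apart. Each window ran from 250 bases before to 50 bases after a start, 300 bases in all, and the windows of this pair shared 226 bases, which is why they are shown: a stretch of DNA common to 2 genes that were higher together. Capitals in these and the later windows mark any match, on either strand, to the GC box (GGGCGG), the CCAAT box, the TATA box (TATAAA), the SOX word ACAAAG or its other form ACAATG, the TFAP2 word GCCNNNGGC or the AP-1 word TGANTCA. Each word was searched by itself, so a base can belong to more than 1 match.
COL4A1, chr13:110307108-110307407, minus strand: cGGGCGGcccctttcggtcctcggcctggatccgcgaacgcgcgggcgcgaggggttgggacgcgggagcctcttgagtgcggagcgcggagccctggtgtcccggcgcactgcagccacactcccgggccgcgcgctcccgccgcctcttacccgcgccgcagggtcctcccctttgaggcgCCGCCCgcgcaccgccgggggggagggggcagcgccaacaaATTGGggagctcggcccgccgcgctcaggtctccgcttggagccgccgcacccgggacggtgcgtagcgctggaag
COL4A2, chr13:110307034-110307333, plus strand: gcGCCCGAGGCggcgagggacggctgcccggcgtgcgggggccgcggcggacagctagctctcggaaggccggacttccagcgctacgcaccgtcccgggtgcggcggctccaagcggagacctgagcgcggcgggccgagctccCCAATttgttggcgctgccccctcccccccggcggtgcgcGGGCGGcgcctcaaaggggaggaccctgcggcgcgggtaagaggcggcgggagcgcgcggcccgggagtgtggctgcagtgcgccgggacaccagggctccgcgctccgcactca
Both windows held a GC box and a CCAAT box inside the shared stretch, in opposite readings because the genes run on opposite strands.

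Chromosome 13 as a whole was shifted in these libraries. The other protein-coding genes there with at least 5 CPM had a median log2 fold change of 0.36, and 91.4% of these 175 genes were above 0, while the chromosomes of the other members, apart from 20 and 21, had medians between -0.02 and 0.06. Both COL4A1 and COL4A2 lay above that median. Its part in their difference was not tested. Without the members on chromosomes 13, 18 and 20, 12 members were higher and 4 lower.

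In the X-linked type IV pair, COL4A6 was lower and COL4A5, whose log2 fold change was also below 0, did not pass. The genes encode the chains of a type IV collagen of certain epithelial and smooth muscle basement membranes. COL4A6 was at 0.358, 0.0999 and 0.290 TPM in ALDH_High and at 0.916, 1.34 and 1.03 TPM in ALDH_Low, groups that did not overlap (log2 fold change -2.19 ± 0.42 (SE), edgeR adjusted p = 0.00459). COL4A5 was at 1.29, 1.49 and 2.16 TPM and at 1.88, 3.87 and 1.32 TPM, with ALDH_Low replicate 2 far above the rest (log2 fold change -0.57 ± 0.35, edgeR adjusted p = 0.311). The ratio of COL4A5 to COL4A6 was 8.65 ± 5.75 in ALDH_High and 2.07 ± 0.800 in ALDH_Low (SD, n = 3). Per library it was 3.60, 14.9 and 7.44 against 2.06, 2.88 and 1.28, so the groups did not overlap but came close. The ALDH_High ratios rest on only 31, 11 and 30 counts of COL4A6. The difference between the genes was not tested. COL4A6 lies at chromosome X, 108155607 to 108439497 on the minus strand, and COL4A5 at 108439838 to 108697545 on the plus strand, with 341 bases between the annotated genes. Their RefSeq starts were 380 bases apart and the windows shared 121 bases, fewer than in the COL4A1 pair. They are shown as the other tested pair.
COL4A6, chrX:108439409-108439708, minus strand: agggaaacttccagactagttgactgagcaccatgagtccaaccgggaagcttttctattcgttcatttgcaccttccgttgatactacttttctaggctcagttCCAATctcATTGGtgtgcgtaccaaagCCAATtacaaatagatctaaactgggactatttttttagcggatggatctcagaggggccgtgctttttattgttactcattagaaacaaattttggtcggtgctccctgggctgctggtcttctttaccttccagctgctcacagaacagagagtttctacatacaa
COL4A5, chrX:108439588-108439887, plus strand: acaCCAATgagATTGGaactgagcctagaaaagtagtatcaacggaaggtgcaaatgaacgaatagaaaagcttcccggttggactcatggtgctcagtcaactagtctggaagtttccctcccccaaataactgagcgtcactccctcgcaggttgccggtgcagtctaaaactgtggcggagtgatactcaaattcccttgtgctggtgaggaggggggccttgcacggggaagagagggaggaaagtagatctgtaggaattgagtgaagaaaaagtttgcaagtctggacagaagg
The shared stretch of this pair held 2 CCAAT boxes facing each other, and COL4A6 had a further CCAAT box at -118 from its start. Neither window held a GC box. The remaining pair, COL4A3 and COL4A4 on chromosome 2, has starts 419 bases apart and was not tested, reaching no more than 15 counts.

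Of the transmembrane collagens, cell-surface proteins with a short inner tail and a collagenous outer part, both tested members were lower in ALDH_High. Of all genes tested, 9.83% were lower. COL13A1, found at cell contacts and neuromuscular junctions, stood at 10.8, 9.67 and 7.46 TPM in ALDH_High and at 40.2, 38.2 and 41.3 TPM in ALDH_Low. The 3 ALDH_Low values lay close together and well above all ALDH_High values, a fold of 4.41 (log2 fold change -2.14 ± 0.18 (SE), edgeR adjusted p = 3.21e-05). COL17A1, a hemidesmosome protein that fixes epithelial cells to the basement membrane, stood at 0.252, 0.0990 and 0.111 TPM against 2.79, 2.32 and 1.48 TPM. It was scarce in both groups and lower in every ALDH_High library, a fold of 14.7 (log2 fold change -3.88 ± 0.41 (SE), edgeR adjusted p = 1.31e-04). COL17A1 passed the count filter only through its ALDH_Low libraries, so its direction was in part a condition of being tested. COL13A1 passed it in every library of both groups. The class took 1.11% ± 0.243 (SD, n = 3) of the summed collagen TPM in ALDH_High and 9.34% ± 0.357 in ALDH_Low, most of it COL13A1. COL23A1 and COL25A1, the other two members of the class, reached at most 1 count.

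COL13A1 (chromosome 10, 69801880 to 69964275, plus strand) and COL17A1 (chromosome 10, 104031286 to 104085880, minus strand) share a chromosome arm but not a neighbourhood. The other genes of chromosome 10 had a median log2 fold change of 0.03. The promoter windows of COL13A1 and COL17A1 are shown as those of the tested genes of the class.
COL13A1, chr10:69801656-69801955, plus strand: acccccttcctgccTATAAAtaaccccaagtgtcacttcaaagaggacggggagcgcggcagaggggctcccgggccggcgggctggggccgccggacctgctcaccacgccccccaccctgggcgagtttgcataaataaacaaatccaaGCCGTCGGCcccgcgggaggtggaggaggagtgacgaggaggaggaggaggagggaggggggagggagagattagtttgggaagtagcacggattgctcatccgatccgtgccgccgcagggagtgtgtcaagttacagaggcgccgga
COL17A1, chr10:104085831-104086130, minus strand: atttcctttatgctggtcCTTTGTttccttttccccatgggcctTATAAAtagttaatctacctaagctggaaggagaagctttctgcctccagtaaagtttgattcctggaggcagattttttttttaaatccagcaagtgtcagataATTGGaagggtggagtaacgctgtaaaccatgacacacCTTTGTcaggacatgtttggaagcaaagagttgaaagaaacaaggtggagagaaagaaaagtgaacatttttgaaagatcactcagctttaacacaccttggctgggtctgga
The word TATAAA began at -236 from the COL13A1 start and at -206 from the COL17A1 start. The COL17A1 window also held 2 SOX words and a CCAAT box, and the COL13A1 window a TFAP2 word. TATAAA occurred in 11.5% of all 35116 RefSeq promoter windows of this length and in 5 of the 32 members that matched a RefSeq window by symbol.

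Over all matched members, the GC box occurred in 18 of 32 windows, against 45.0% of all windows. It was in 8 of the 11 matched members that were higher (COL4A1, COL4A2, COL5A1, COL6A2, COL8A2, COL9A2, COL11A1 and COL18A1) and in none of the 4 that were lower. Among matched members that did not pass, 6 of 8 held it, a share close to that of the higher members, and among those not tested 4 of 9. The CCAAT box occurred in 10 of 32 (34.6% of all windows), ACAAAG in 4 (16.1%), GCCNNNGGC in 9 (23.2%), and ACAATG (10.8%) and TGANTCA (7.71%) in none. These are counts of letters in 1 window per gene, the first listed where RefSeq gives several, and carry no test.

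FACIT members made up the largest share of collagen transcript on average in both groups, 36.5% in ALDH_High and 28.8% in ALDH_Low, most of it COL9A3. Of 10 listed, 7 were tested, 5 were higher and none was lower, beside 10.8% higher and 9.83% lower of all genes tested. Of these 5, COL9A1 and COL14A1 passed the count filter only through their ALDH_High libraries. COL9A3, a type IX collagen chain best known from cartilage and the most abundant collagen transcript of these cells, stood at 232, 263 and 286 TPM in ALDH_High and at 87.7, 101 and 115 TPM in ALDH_Low. The groups were far apart, with a fold of 2.46 (log2 fold change 1.30 ± 0.13 (SE), edgeR adjusted p = 1.11e-04). COL9A3 alone was 30.4% ± 2.21 of the summed collagen TPM in ALDH_High and 22.6% ± 3.86 in ALDH_Low (SD, n = 3). It lies at chromosome 20, 62816244 to 62841159, where the other genes of the chromosome had a median log2 fold change of 0.28, with 86.9% of 289 genes above 0. The part of that shift in COL9A3 was not tested. TCFL5 overlaps COL9A3 on the opposite strand and had 521 to 829 counts, beside up to 11593 counts of COL9A3.

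COL9A2 and COL9A1 encode the partner chains of type IX collagen and were far less abundant. COL9A2 stood at 4.16, 3.40 and 4.53 TPM against 1.56, 0.945 and 1.05 TPM (log2 fold change 1.71 ± 0.27, edgeR adjusted p = 0.00143). COL9A1 stood at 0.753, 0.495 and 0.478 TPM against 0.0388, 0.0247 and 0.0501 TPM. In ALDH_Low, COL9A1 rested on 2, 1 and 2 counts, so its difference is best given as a ratio of summed, library-scaled counts: 66 counts against 5, a ratio of 13.5 with a 95% counting interval of 5.51 to 43.0 (edgeR adjusted p = 0.00103). All 3 type IX genes were thus higher in ALDH_High with groups that did not overlap. COL9A1, however, passed the count filter only through its ALDH_High libraries, so its direction was in part a condition of being tested. The levels were very unequal: COL9A3 was 65.4 ± 10.9 times COL9A2 in ALDH_High and 91.2 ± 30.3 times in ALDH_Low (TPM ratio, SD, n = 3, groups overlapping).

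COL19A1, a rare collagen described in basement membrane zones and in neurons, had the largest change among members with at least 10 TPM in a group. It stood at 14.2, 19.0 and 18.4 TPM in ALDH_High and at 0.450, 0.922 and 1.21 TPM in ALDH_Low. No ALDH_Low library came near any ALDH_High library, a fold of 19.3 (log2 fold change 4.27 ± 0.30 (SE), edgeR adjusted p = 1.32e-05). COL19A1 (chromosome 6, 69866556 to 70212468, plus strand) and COL9A1 (70216040 to 70303084, minus strand) lie tail to tail with 3.57 kb between them, and both were higher, while the other genes of chromosome 6 had a median log2 fold change of 0.02. LMBRD1 overlaps COL19A1 on the opposite strand and had only 133 to 278 counts, beside up to 1962 for COL19A1.

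COL14A1, a FACIT of tendon and skin, was at 0.280, 0.405 and 0.522 TPM against 0.0214, 0.0141 and 0.0252 TPM, or 113 counts against 5, a ratio of 23.1 with a 95% counting interval of 9.63 to 72.6 (edgeR adjusted p = 1.82e-04). Its level was low even where it was highest, and it passed the count filter only through its ALDH_High libraries. COL12A1, at 11.6, 17.3 and 17.7 TPM against 13.9, 16.1 and 13.9 TPM, was as abundant as COL19A1 in ALDH_High but its groups overlapped (log2 fold change 0.03 ± 0.14, edgeR adjusted p = 0.921, with a sign that turned in 4 of the alternatives). COL16A1 ranged from 5.44 to 20.8 TPM inside ALDH_High alone, with replicate 1 the lowest, and was at 9.89, 7.98 and 14.5 TPM in ALDH_Low (log2 fold change 0.33 ± 0.38, edgeR adjusted p = 0.613). COL20A1, COL21A1 and COL22A1 were not tested. COL22A1 had 21, 5 and 2 counts in the 3 ALDH_High libraries, so 1 library carried most of its signal.

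**Figure D3:**
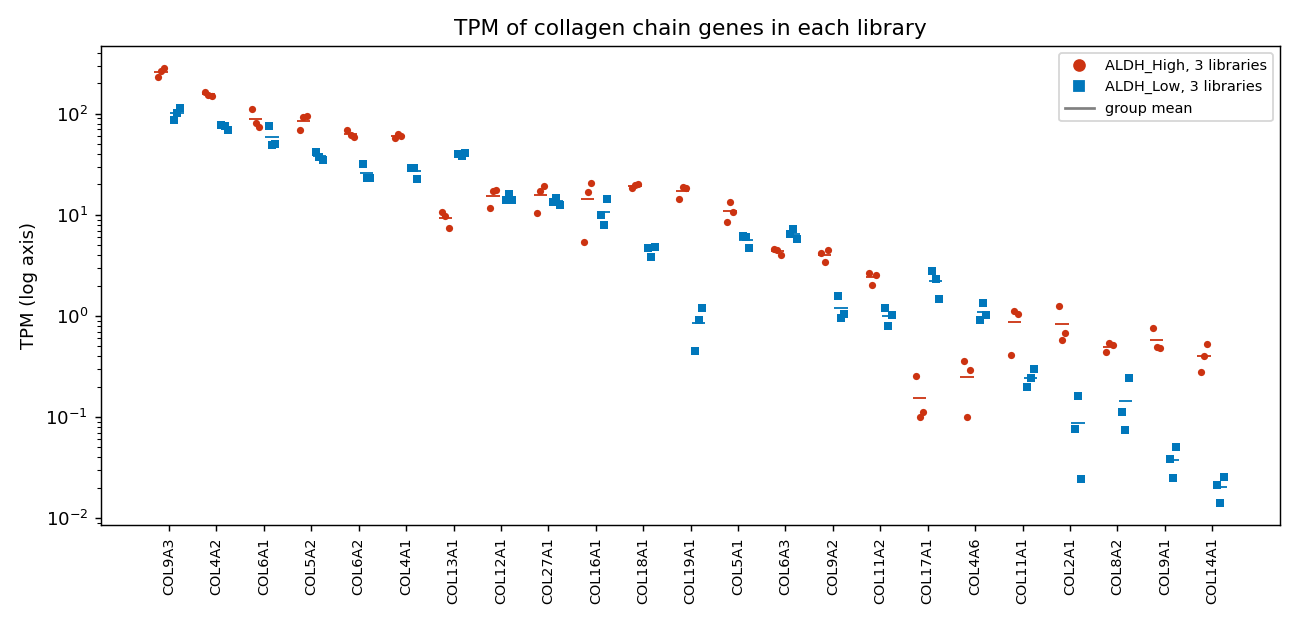
TPM in each library (vertical axis, log scale) of the collagen chain genes past the threshold or with a mean of at least 10 TPM, in order of mean level, with ALDH_High libraries as circles, ALDH_Low libraries as squares and group means as lines. COL9A3 is the highest in both groups at 260 and 101 TPM on average, COL19A1 stands at 17.2 against 0.862 TPM, and COL6A1, COL12A1, COL16A1 and COL27A1 overlap.

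Fibrillar chains were higher for types II, V and XI and not for type I. Of 11 listed, 10 were tested, 5 were higher and none was lower, beside 10.8% higher and 9.83% lower of all genes tested. Of these 5, COL2A1 passed the count filter only through its ALDH_High libraries. COL5A2, a chain of the type V collagen that sets fibril diameter, was the main fibrillar transcript, at 69.2, 92.5 and 94.6 TPM in ALDH_High and 42.1, 37.8 and 35.3 TPM in ALDH_Low, a log2 fold change of 1.10 ± 0.12 (SE; edgeR adjusted p = 1.42e-04). ALDH_High replicate 1 was the lowest of its group and still above all of ALDH_Low. COL5A1, its usual partner chain, stood at 8.57, 13.3 and 10.6 TPM against 6.25, 6.01 and 4.70 TPM (log2 fold change 0.88 ± 0.15, edgeR adjusted p = 0.00272). The third type V chain, COL5A3, was at 11.9, 7.83 and 6.08 TPM against 11.3, 9.87 and 7.68 TPM and overlapped (log2 fold change -0.18 ± 0.25, edgeR adjusted p = 0.673). Its value hung on single libraries, with -0.55 (edgeR adjusted p = 0.0480) without ALDH_High replicate 1 and 0.06 without ALDH_High replicate 3. COL5A2 was 7.99 ± 0.981 times COL5A1 in ALDH_High and 6.84 ± 0.614 times in ALDH_Low, groups that overlapped, whereas its ratio to COL5A3 was 11.1 ± 4.91 against 4.05 ± 0.477, groups that did not (TPM ratios, SD, n = 3).

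The minor fibrillar chains of cartilage were low but higher in ALDH_High. COL11A2 stood at 2.66, 2.04 and 2.55 TPM against 1.2, 0.800 and 1.02 TPM (log2 fold change 1.22 ± 0.24, edgeR adjusted p = 0.00479). COL11A1 stood at 0.410, 1.13 and 1.05 TPM against 0.197, 0.242 and 0.297 TPM (log2 fold change 1.72 ± 0.40, edgeR adjusted p = 0.0133). The call for COL11A1 was lost without ALDH_High replicate 2 (adjusted p = 0.0580), ALDH_Low replicate 1 (0.0549) or ALDH_Low replicate 2 (0.0511). It was also lost with limma on log2(TPM + 1) and no TPM filter (adjusted p = 0.168). COL2A1, the main collagen of cartilage, stood at 1.25, 0.576 and 0.676 TPM against 0.0757, 0.160 and 0.0243 TPM (log2 fold change 3.26 ± 0.60, edgeR adjusted p = 0.00353), and its log2 fold change was 3.96 without ALDH_Low replicate 2. COL2A1 passed the count filter only through its ALDH_High libraries.

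COL1A1, which with COL1A2 makes the type I collagen of skin and bone, was only at 1.30, 1.57 and 1.52 TPM in ALDH_High and 2.02, 2.09 and 1.24 TPM in ALDH_Low (log2 fold change -0.34 ± 0.25, edgeR adjusted p = 0.395). COL1A2 was at 0.310, 0.354 and 0.245 TPM against 0.769, 0.0531 and 0.0984 TPM, with ALDH_Low replicate 1 apart from the rest (log2 fold change -0.10 ± 0.77, edgeR adjusted p = 0.948). COL3A1, the type III chain of soft connective tissue, reached no more than 11 counts and was not tested. Type I and type III collagen, the usual products of fibroblasts, were thus minor transcripts in both groups. COL27A1 stood at 10.5, 17.2 and 19.4 TPM against 13.4, 14.8 and 12.5 TPM and overlapped (log2 fold change 0.15 ± 0.17, edgeR adjusted p = 0.601), but was at 0.35 with an edgeR adjusted p = 0.0423 without ALDH_High replicate 1. COL24A1, at 0.0605 and 0.0773 TPM on average, did not pass.

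Type VI collagen, which assembles from the products of COL6A1, COL6A2 and COL6A3, differed in opposite directions between its chains. COL6A2 was at 68.7, 61.2 and 59.6 TPM in ALDH_High and at 31.9, 23.2 and 23.4 TPM in ALDH_Low, with no overlap (log2 fold change 1.23 ± 0.15 (SE), edgeR adjusted p = 3.88e-04). COL6A3 was at 4.62, 4.47 and 4.02 TPM against 6.46, 7.32 and 5.71 TPM, lower in every ALDH_High library (log2 fold change -0.61 ± 0.14, edgeR adjusted p = 0.00994). The COL6A3 call was lost without ALDH_Low replicate 2 (-0.54, adjusted p = 0.0511) and in the limma fits on TPM (adjusted p = 0.0562 to 0.117). COL6A1 was at 111, 81.3 and 74.5 TPM against 76.4, 49.4 and 50.6 TPM. In each group replicate 1 was the highest, and the groups overlapped at that ALDH_Low library (log2 fold change 0.56 ± 0.22, edgeR adjusted p = 0.0970). Without ALDH_Low replicate 1 COL6A1 passed (0.79, edgeR adjusted p = 0.0380), as it did with the replicate number as a block (0.55, edgeR adjusted p = 0.00970).

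The proportions of the type VI transcripts differed as well. COL6A1 was 1.61, 1.33 and 1.25 times COL6A2 in the ALDH_High libraries and 2.39, 2.13 and 2.16 times in the ALDH_Low libraries, and the groups did not overlap. COL6A1 was 20.2 ± 3.24 times COL6A3 in ALDH_High and 9.15 ± 2.55 times in ALDH_Low (SD, n = 3), again without overlap. COL6A1 (chromosome 21, 45981770 to 46005050) and COL6A2 (46098112 to 46132848) lie on the same strand with 93.1 kb between them, and COL6A3 lies on chromosome 2, 237324003 to 237414328. COL6A5 and COL6A6 reached at most 2 counts.

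**Figure D4:**
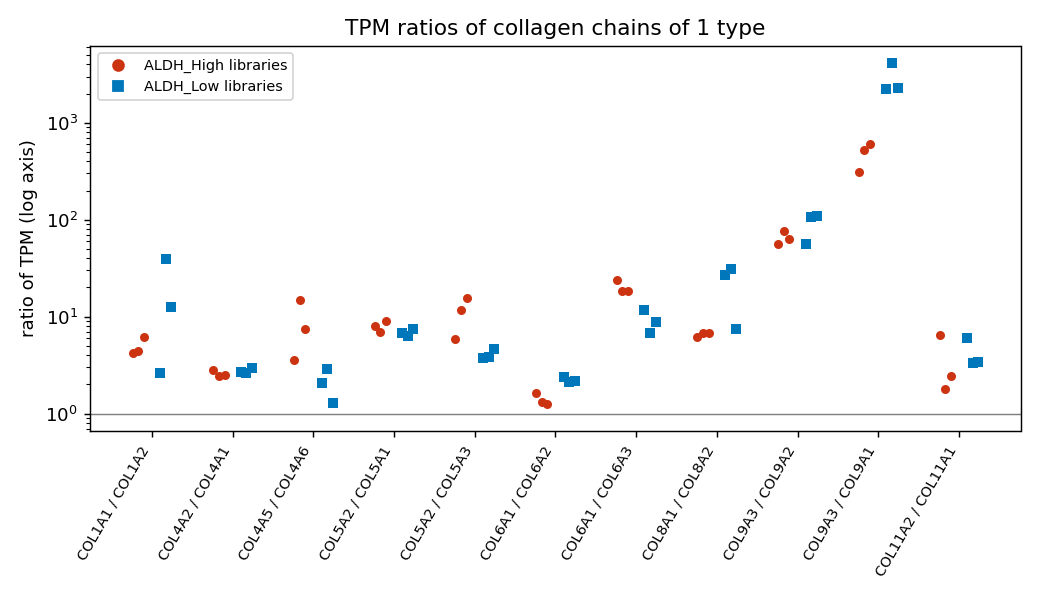
Ratio of TPM between chains of 1 collagen type in each library (vertical axis, log scale), with ALDH_High libraries as circles and ALDH_Low libraries as squares. The ratio of COL4A2 to COL4A1 overlaps between groups at 2.46 to 2.98, and the ratio of COL6A1 to COL6A2 separates at 1.25 to 1.61 against 2.13 to 2.39. Ratios over COL9A1, COL1A2, COL8A2 and, in ALDH_High, COL4A6 rest on few counts.

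Among the multiplexins, COL18A1 was the member with the smallest p. It encodes type XVIII collagen, the basement membrane proteoglycan from which endostatin is released, and stood at 18.6, 19.8 and 20.1 TPM in ALDH_High and 4.72, 3.84 and 4.83 TPM in ALDH_Low. Both groups were tight and far apart, with a fold of 4.21 (log2 fold change 2.07 ± 0.14 (SE), edgeR adjusted p = 9.09e-06). COL18A1 lies at chromosome 21, 45405165 to 45513720, 468 kb from COL6A1, and the other genes of that chromosome had a median log2 fold change of 0.10. SLC19A1 overlaps it on the opposite strand with 1824 to 2621 counts, beside 1707, 2239 and 2184 counts of COL18A1 in ALDH_High and only 620, 390 and 485 in ALDH_Low, so the COL18A1 counts could be affected if the counting ignored strand. COL15A1, the other multiplexin, was at 0.892 ± 0.121 TPM in ALDH_High and 0.737 ± 0.280 TPM in ALDH_Low (SD, n = 3; log2 fold change 0.23 ± 0.30, edgeR adjusted p = 0.658).

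The short chain collagens of the endothelial and corneal type VIII were scarce. COL8A2 was at 0.435, 0.537 and 0.516 TPM against 0.112, 0.0747 and 0.243 TPM (log2 fold change 1.76 ± 0.45, edgeR adjusted p = 0.0195), and the call was lost without ALDH_High replicate 2 (1.74, adjusted p = 0.0595), ALDH_Low replicate 1 (1.60, adjusted p = 0.0740) or ALDH_Low replicate 2 (1.44, adjusted p = 0.0705). The COL8A2 call was also lost with limma on log2(TPM + 1) and no TPM filter (adjusted p = 0.0582). Without ALDH_Low replicate 3 the log2 fold change of COL8A2 was 2.39. COL8A2 passed the count filter only through its ALDH_High libraries. COL8A1, its partner chain, was at 2.68, 3.65 and 3.48 TPM against 3.05, 2.34 and 1.80 TPM and overlapped (log2 fold change 0.40 ± 0.22, edgeR adjusted p = 0.259). COL10A1, the collagen of hypertrophic cartilage, had 0 counts in all 6 libraries. COL7A1, which forms the anchoring fibrils under the epidermis, was at 6.99, 8.63 and 7.63 TPM against 4.97, 4.39 and 5.82 TPM. Its groups did not overlap, and its edgeR adjusted p = 0.0519 lay just above the threshold (log2 fold change 0.56 ± 0.18). It passed in 5 of 15 alternatives, with adjusted p-values of 0.0204 (DESeq2 Wald test) to 0.0481 (DESeq2 size factors), among them the fits without ALDH_High replicate 1 (0.0450) or ALDH_Low replicate 3 (0.0394), and ranged up to 0.167 in the others. COL26A1 and COL28A1, placed in no class, had at most 4 counts.

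By class, the ratio of summed TPM between the groups ran from 3.92 in multiplexins (20.4 ± 0.763 against 5.20 ± 0.266 TPM, SD, n = 3) through 2.42 in FACIT chains (313 ± 40.4 against 129 ± 16.4), 2.09 in basement membrane chains (218 ± 5.38 against 104 ± 9.35), 1.79 in fibrillar chains (127 ± 17.6 against 70.8 ± 7.29) and 1.71 in beaded filament chains (156 ± 24.3 against 91.5 ± 20.2) to 0.225 in transmembrane chains (9.48 ± 1.78 against 42.1 ± 1.41). In each of these 6 classes, and for COL7A1 as the only anchoring fibril gene, the libraries of the groups did not overlap. They did overlap for the short chain class (3.11, 4.19 and 3.99 against 3.16, 2.41 and 2.05 TPM) and for the genes in no class. COL9A3, COL4A2, COL6A1, COL5A2 and COL6A2 together supplied 76.5% ± 1.59 of the summed TPM in ALDH_High and 66.3% ± 0.949 in ALDH_Low. Of all members, 11 had a mean of at least 10 TPM and 22 of at least 1 TPM, while 6 of the 19 members past the threshold had a mean under 1 TPM. For the abundant genes the values of the authors' deposited table lay near those given above, with a difference of log2 coefficients (high minus low) of 1.32 for COL9A3, 1.05 for COL4A2 and 1.13 for COL4A1 in the authors' deposited table.

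Collagen chains are modified and folded in the endoplasmic reticulum, trimmed after secretion and crosslinked in the matrix, and 34 genes of these steps were examined beside them. Of these, 31 were tested, 10 were higher and 1 lower in ALDH_High (32.3% and 3.23%, beside 10.8% and 9.83% of all genes), with a median log2 fold change of 0.30. Crosslinking enzymes showed the largest changes. LOXL3, a lysyl oxidase, stood at 285 ± 26.1 TPM in ALDH_High and 54.8 ± 9.37 TPM in ALDH_Low (SD, n = 3), without overlap and with a fold of 5.04 (edgeR adjusted p = 1.22e-05). On average that was above the level of COL9A3 in ALDH_High. LOXL4, of the same family, stood at 171, 76.4 and 79.1 TPM against 27.6, 20.9 and 18.2 TPM, with ALDH_High replicate 1 apart from its group (2.28 ± 0.33, edgeR adjusted p = 9.20e-04). PXDN, the peroxidase behind the sulfilimine crosslinks of type IV collagen, stood at 14.6, 10.6 and 10.8 TPM against 2.91, 1.83 and 1.58 TPM (2.47 ± 0.24, edgeR adjusted p = 9.11e-05). LOXL1 went the other way at a low level, 0.317, 0.267 and 0.179 TPM against 2.19, 1.73 and 1.85 TPM (-2.90 ± 0.39, edgeR adjusted p = 6.13e-04), and LOXL2 did not pass at 114 and 118 TPM on average (-0.09 ± 0.11).

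Modification inside the cell was covered by 13 genes for hydroxylase subunits, hydroxylase family members and galactosyltransferases. Of these 13, 6 were higher and none was lower, beside 10.8% higher and 9.83% lower of all genes tested. At that share, 13 genes can easily hold no lower one. The other 7 (P4HA2, P4HA3, P3H1, P3H3, P3H4, PLOD1 and PLOD2) did not pass, with log2 fold changes from -0.17 for P3H3 to 0.55 for P4HA3. PLOD3, which hydroxylates and glycosylates lysines, stood at 308 ± 14.4 TPM in ALDH_High and 170 ± 6.43 TPM in ALDH_Low (SD, n = 3; log2 fold change 0.81 ± 0.12, edgeR adjusted p = 9.15e-04). P4HA1 and P4HB, the catalytic and the disulfide isomerase subunit of prolyl 4-hydroxylase, had log2 fold changes of 0.74 ± 0.12 (edgeR adjusted p = 0.00202) and 0.63 ± 0.11 (edgeR adjusted p = 0.00325). The galactosyltransferases COLGALT1 and COLGALT2 had 0.60 ± 0.11 (edgeR adjusted p = 0.00393) and 1.35 ± 0.23 (edgeR adjusted p = 0.00237), and P3H2 and FKBP14 completed the 10. The dedicated collagen chaperone SERPINH1 did not pass (0.17 ± 0.17, edgeR adjusted p = 0.553), and neither did the procollagen C-proteinase BMP1 (-0.08 ± 0.12, edgeR adjusted p = 0.716).

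Of 12 genes for collagen receptors, 10 were tested, 2 were higher and 3 lower in ALDH_High (20% and 30% of those tested, beside the same 10.8% and 9.83%), with a median log2 fold change of -0.20. MRC2, an endocytic receptor that takes up collagen fragments, was at 41.8 ± 3.74 TPM in ALDH_High and 18.2 ± 2.26 TPM in ALDH_Low, groups that did not overlap (SD, n = 3; log2 fold change 1.15 ± 0.12, edgeR adjusted p = 1.24e-04). ITGA10, a collagen-binding integrin chain of cartilage, was at 7.84, 5.59 and 5.11 TPM against 1.99, 1.36 and 1.62 TPM (1.86 ± 0.24, edgeR adjusted p = 4.04e-04). ITGA2, the alpha chain of a type I collagen-binding integrin, was at 6.88 ± 1.14 TPM against 13.4 ± 4.20 TPM (SD, n = 3; a fold of 2.01 lower, edgeR adjusted p = 0.00570), a call lost in the limma fits on TPM (adjusted p = 0.0569 to 0.137). ADGRG1, an adhesion receptor that binds type III collagen, was at 68.4, 52.5 and 49.7 TPM against 138, 129 and 105 TPM (-1.16 ± 0.17, edgeR adjusted p = 0.00101). The 2 collagen-binding integrin alpha chains that passed thus moved in opposite directions. OSCAR, a receptor of myeloid cells, was the other lower gene (-1.67 ± 0.51, edgeR adjusted p = 0.0444). Its log2 fold change was -2.35 without ALDH_High replicate 1, and its adjusted p rose to between 0.0583 and 0.150 without any other library. The shared integrin chain ITGB1 and the collagen receptor kinases DDR1 and DDR2 did not pass, with log2 fold changes of 0.18 ± 0.12, 0.09 ± 0.13 and -0.20 ± 0.15.

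**Figure D5:**
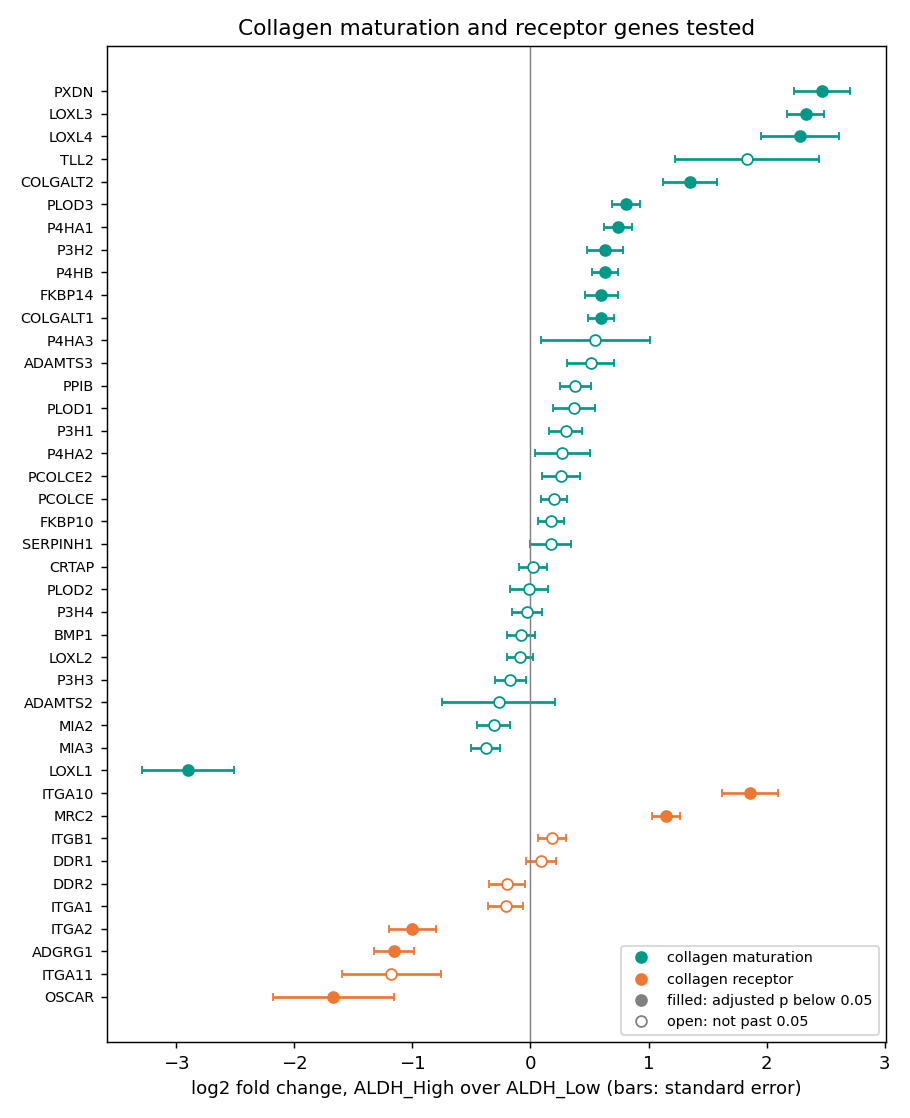
The log2 fold change (horizontal axis, ALDH_High over ALDH_Low) of the 31 collagen maturation genes and 10 collagen receptor genes tested, with standard errors as bars and filled points for an edgeR adjusted p below 0.05. PXDN, LOXL3 and LOXL4 lie between 2.28 and 2.47, LOXL1 stands alone at -2.90, and the receptors fall on both sides of 0.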

How the data were processed

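RNA was measured in 6 libraries. The authors deposited counts per gene, which are estimated counts rounded to whole numbers: 133 to 177 genes per library had a count of 0 beside a TPM above 0. The authors also deposited TPM values, which sum to 1000000 per library. Per the file headers, the authors' deposited log2 coefficients come from a DESeq2 model with further groups, not analysed here. Per the submitters' processing notes, FastQC 0.11.3, STAR 2.5.1b, HTSeq 0.6.1, DESeq2 and build GRCh38 were used, and their roles, the annotation and the strand setting are not given in the sources used here.

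Samples were grouped by title. Genes were kept with filterByExpr, scaled with TMM and tested with edgeR 4.0.16 (glmQLFit, glmQLFTest, two-sided, no replicate term), with Benjamini-Hochberg adjustment over 17047 genes and a threshold of 0.05. Standard errors were taken as the log2 fold change over the root of F. The fit was tested on simulated data. Summed TPM was compared by an exact permutation test. The members and gene lists were chosen with earlier results of these data known. Members past the threshold or with a mean of at least 10 TPM were described in full, those with 1 to 10 TPM by level and fold, and up to 8 genes per direction of the other lists. Rows without a gene name held 0.0213% to 0.0267% of counts and stayed in, as they carry an identifier. Positions are from GENCODE 44 (99.1% of tested genes matched) and promoters from RefSeq. Counting intervals cover counting error only.

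Alternatives were DESeq2 or upper-quartile factors, no filter, at least 10 counts in every library, a replicate block, each library left out, the DESeq2 1.42.0 Wald test, limma 3.58.1 on log2(TPM + 1) or log2(TPM + 0.1), stricter thresholds, leaving out members on chromosomes 13, 18 and 20, and, for the summed TPM, no top member or summed CPM.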

Additional observations from a re-analysis of the deposited data

How the results depend on the processing

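Of the 19 collagen members past the threshold, 13 stayed past it with the same direction in every alternative that fitted them, and 6 (COL2A1, COL5A1, COL6A3, COL8A2, COL11A1 and COL11A2) missed it in 1 or more. The number of higher members lay between 10 and 17 and of lower members between 2 and 5, with 13 to 17 and 3 to 5 when a library was left out; the lower count was 2 with limma on log2(TPM + 1) and 2 on log2(TPM + 0.1), each with a TPM filter. The log2 ratio of summed collagen TPM was 0.77 without COL9A3 and 0.86 for summed CPM, against 0.92. Correlations of the deviations of same-numbered libraries from their group means were 0.15, 0.08 and 0.11. Whether the replicate numbers pair the libraries is not given by the labels and was not tested. With the replicate block, 16 members were higher and 4 lower, and 1947 and 1801 of all genes.

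For all genes, leaving out a library gave 1306 to 2172 higher and 1073 to 2049 lower. Higher genes numbered 1155 with limma on log2(TPM + 1) and no filter, 1060 at an adjusted p below 0.01 and 1004 once a change of at least 1 on the log2 scale was required; lower genes numbered 851, 870 and 954 there, and 1047 and 1051 with limma on log2(TPM + 1) and log2(TPM + 0.1) with the filter. Maturation genes numbered 4 higher under that same fold requirement, 2 lower with upper-quartile factors and 0 lower with at least 10 counts in every library, where LOXL1 was not tested. Receptor genes numbered 1, 1 and 1 lower in the 3 limma fits. The log2 fold change of COL12A1 was -0.02 with upper-quartile factors and -0.03 to 0.17 when a library was left out, and that of COL5A3 was -0.55 to 0.06. The causes were not tested. Depth limits the members with few counts: 8 had at most 10 counts in every library, and folds of COL9A1 and COL14A1 carry wide counting intervals.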
